A study of Mus musculus with 13 samples.

Results

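The expression of 35 genes of the primary cilium was followed in sorted cells of the mouse retina, during postnatal maturation and after deletion of the histone demethylase Kdm6a in the injured adult. The genes were taken by name, from a list of 35 symbols, out of 52550 genes in the count table, and all 35 were found by their Ensembl gene ID. They comprise 10 subunits of intraflagellar transport complex B (IFT-B), 3 of complex A (IFT-A), 6 subunits of the BBSome, 2 chaperonin-like Bardet-Biedl syndrome genes, 9 genes of the transition zone and ciliary gate, 3 genes of the photoreceptor axoneme and 2 ciliary small GTPases. Every member passed the low-count filter in each of the fits, and the smallest count of a member in any library was 36. The series held 13 RNA-seq libraries of retinal cells sorted for the surface antigen Thy1.2, a marker of retinal ganglion cells (RGCs). AAV2-Cre (2 libraries) and AAV2-GFP (3 libraries) came from mice with loxP sites around exon 3 of Kdm6a on both alleles (named UTX in the labels). These mice received the virus into the vitreous, which either expressed Cre or GFP, then had an optic nerve crush, and the cells were taken 3 days later. Their labelled age is P42, although the methods of the study place the crush at a later age, and AAV2-Cre deletes the gene only in the cells that the virus reaches, under a promoter not given in the sources used here. The development libraries came from uninjured wild type (WT) mice at postnatal day (P) 1 (3 libraries), P14 (3 libraries) and P21 (2 libraries). The replicates are called biological by the study, and the sources used here do not say whether a library holds 1 animal or a pool, so the p-values measure the spread between these libraries.

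The primary cilium is a single antenna that grows from a centriole, and most neurons carry a short one. Proteins move along its microtubules on trains of IFT-B and IFT-A, which are carried to the tip by kinesin and back by dynein, while the BBSome rides these trains and removes membrane proteins from the cilium. The transition zone at its base acts as a gate that decides which proteins enter. In rod and cone photoreceptors the cilium is enlarged: its transition zone is the connecting cilium, and its distal end is the outer segment, where light is captured. For that reason photoreceptors are known to depend heavily on these genes, and mutations in many of them cause retinal degeneration in humans.

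Promoters were examined as a feature that the choice of members did not use. RefSeq promoters of build GRCm38.p6 (250 bases before to 50 bases after the start site) matched 29 of the 35 members by symbol, with 34 entries. The motif GTTGCC, the half-site of the X-box that RFX transcription factors bind in ciliary genes, was present on either strand in 13 of these 34 promoters (38.2%), against 12.5% of 32851 promoters of all genes. The full palindromic form, GTTNCC and GGNAAC with 2 bases between them, which can contain GTTGCC, was present in 2 (5.88%), those of Bbs7 and Ahi1, against 0.451% of all promoters. TAATCC, the core recognized by the photoreceptor homeodomain factor Crx, was present in 3 (8.82%), those of Bbs1, Mak and Rpgrip1, against 7.06% of all promoters. The spelling of the motifs was settled after several had been looked at, and a match is a description of the letters, not a bound site. Sequences are shown for the 2 genes with the palindrome, for Ift57, whose promoter holds the half-site in 2 copies, and for Rpgrip1, the member that edgeR called lower after Kdm6a deletion. Where a gene had several promoter entries, the entry with the most motif matches was chosen for display. Capitals mark the motif, read 5′ to 3′ on the strand of the gene, and the Crx core of Rpgrip1 lies on the opposite strand and therefore reads GGATTA.
Bbs7, chr3:36613390-36613539, minus strand: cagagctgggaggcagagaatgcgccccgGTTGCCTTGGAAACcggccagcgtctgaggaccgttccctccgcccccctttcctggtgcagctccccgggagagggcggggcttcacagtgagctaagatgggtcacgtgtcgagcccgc
Ahi1, chr10:20952562-20952587, plus strand: gtctgaGTTACCTAGGCAACagcggc
Ift57, chr16:49699144-49699293, plus strand: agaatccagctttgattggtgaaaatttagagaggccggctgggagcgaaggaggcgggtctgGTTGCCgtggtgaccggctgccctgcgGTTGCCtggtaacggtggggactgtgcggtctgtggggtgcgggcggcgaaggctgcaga
Rpgrip1, chr14:52110753-52110902, plus strand: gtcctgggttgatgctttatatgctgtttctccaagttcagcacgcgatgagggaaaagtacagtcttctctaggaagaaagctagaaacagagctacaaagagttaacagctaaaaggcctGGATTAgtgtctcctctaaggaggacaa
The palindrome of Bbs7 starts at base -121 from the RefSeq start site, that of Ahi1 at base 22 after it, the half-sites of Ift57 at bases -87 and -60, and the Crx core of Rpgrip1 at base -28.

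The AAV2-Cre and AAV2-GFP libraries held between 13637602 and 16070720 counts each (median 15365794), and those of development between 30357454 and 38812917 (median 36284936). Levels are given as CPM, counts per 1000000 counts of a library, with library sizes scaled by the trimmed mean of M values over all 13 libraries, and as mean ± SD. The AAV2-Cre libraries and their AAV2-GFP controls together are called the knockout dataset. The spread between replicates was far wider in the knockout dataset, with a biological coefficient of variation of 0.340, against 0.109 in development. Kdm6a itself stood at 111 ± 1.11 CPM in AAV2-Cre (SD, n = 2) and 110.1 ± 11.8 CPM in AAV2-GFP (SD, n = 3), a log2 fold change of -0.02 (edgeR adjusted p = 0.963). These counts cover the whole gene, of which the recombination removes exon 3, so they do not check the deletion. The sort was checked against 16 RGC markers, which took 0.0356% to 0.0411% of counts in AAV2-Cre, 0.0372% to 0.0447% in AAV2-GFP, 1.04% to 1.15% at P1, 0.137% to 0.158% at P14 and 0.0393% to 0.0827% at P21. The 20 rod markers took 1.76% and 3.76% in AAV2-Cre and 3.86% to 4.63% in AAV2-GFP, against 0.116% to 0.123% at P1, 0.169% to 0.191% at P14 and 0.113% to 0.115% at P21. As summed shares, the 20 rod markers outweighed the 16 RGC markers in every group but P1. Such a sum can rest on a few genes of a list, and the lists differ in size, so it does not give the share of cells. The mean rod sum rose only from 0.120% at P1 to 0.181% at P14, far less than the median rod marker rose over that step. In development it therefore leans on markers that rose less than most of the list. No marker of either list was at 0 in every library of a dataset. Less RNA of a gene per cell and fewer cells that express it cannot be told apart in such bulk libraries.

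Together the 35 members took 0.180% and 0.229% of counts in AAV2-Cre, 0.313% to 0.449% in AAV2-GFP, 0.116% to 0.121% at P1, 0.152% to 0.157% at P14 and 0.141% and 0.149% at P21. Levels between genes are compared per kb of exon length. The gene with the highest level per kb was Ift20, the IFT-B subunit that also sits at the Golgi and sorts membrane proteins toward the cilium, in 4 of the 5 groups: 38.2 CPM per kb in AAV2-Cre, 36.6 at P1, 64.3 at P14 and 44.3 at P21. In AAV2-GFP the microtubule-binding protein of the outer segment axoneme Rp1 was higher still, at 80.9 ± 29.5 CPM per kb (SD, n = 3), while Ift20 stood there at 38.3 ± 5.48. In AAV2-Cre the lead of Ift20 was within the spread. Its libraries spanned 34.0 to 42.5 CPM per kb there, and those of Rp1 spanned 23.1 to 43.1. Rp1 was also the gene with the lowest level per kb at P1 (0.410) and at P21 (0.584). In the remaining groups the lowest was Rpgrip1l, a scaffold of the transition zone, at 1.15 CPM per kb in AAV2-Cre, 1.31 in AAV2-GFP and 1.26 at P14. Members varied little between replicates in development, with a median coefficient of variation of 6.31% at P1, 4.72% at P14 and 4.79% at P21, and more in the injured adults, with 15.1% in AAV2-Cre and 21.0% in AAV2-GFP. Within the knockout dataset the replicates were also ordered: AAV2-GFP replicate 1 held the highest CPM of 27 of the 35 members, and AAV2-Cre replicate 1 the lowest of 22.

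**Figure D1:**
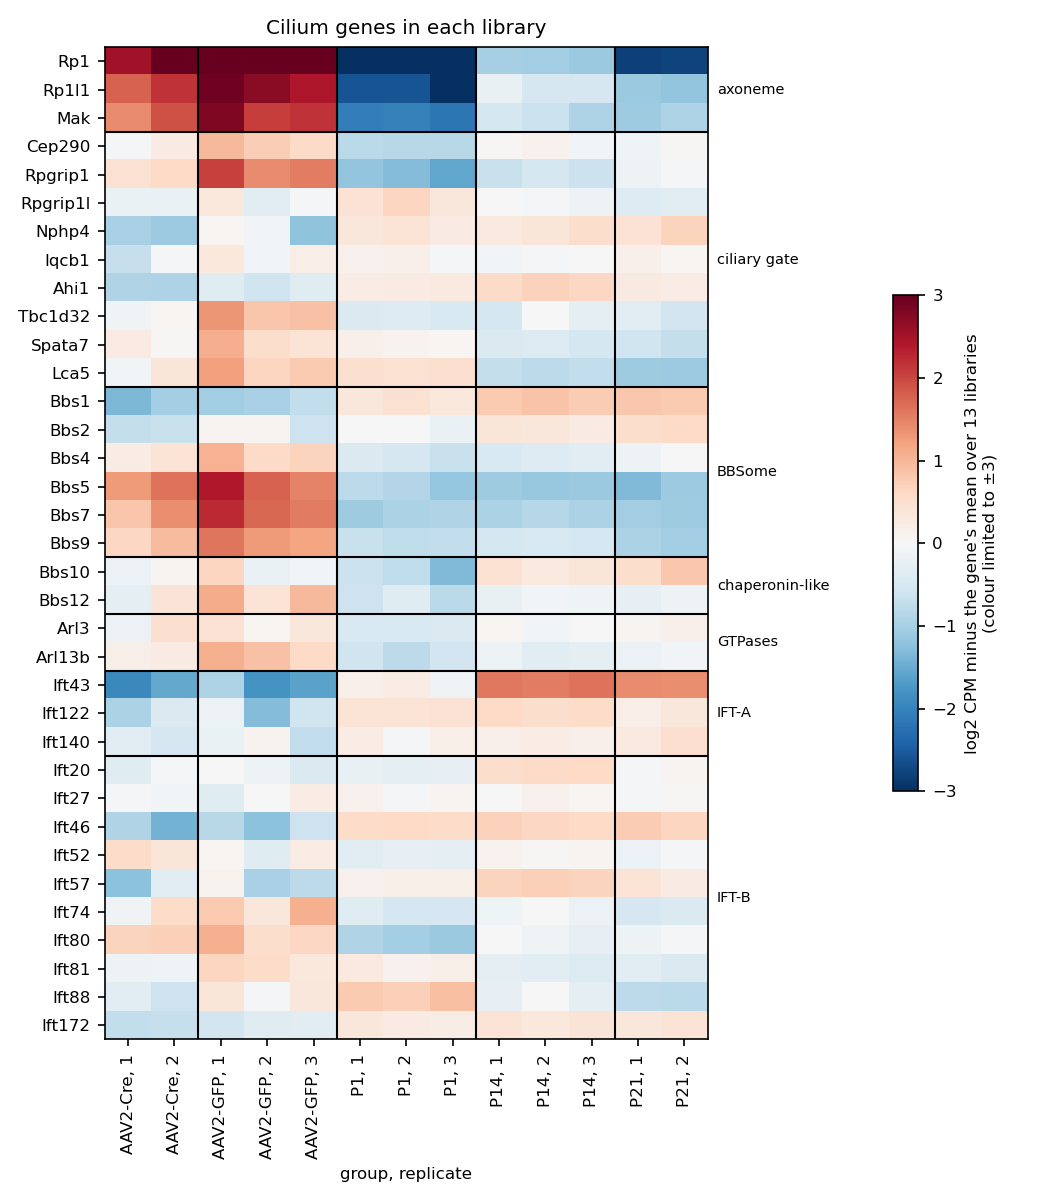
Each row is 1 of the 35 cilium genes, grouped by role, and each column 1 of the 13 libraries; colour gives log2 CPM minus the mean of that gene over the libraries, limited to 3 in either direction. The axoneme genes and Rpgrip1, Bbs5, Bbs7 and Bbs9 are high in the AAV2-Cre and AAV2-GFP libraries, whereas Ift43 and Bbs1 are low there.

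To ask which cilium genes differ after Kdm6a deletion, AAV2-Cre was compared with AAV2-GFP by the quasi-likelihood test of edgeR with Benjamini-Hochberg adjustment over 18395 genes. At an adjusted p under 0.05, 1 of the 35 members fell, the gate scaffold Rpgrip1, and 34 were not called; of all genes tested, 0.294% were called lower. No member was called higher, by edgeR, DESeq2 or limma-voom, or at an unadjusted p under 0.05, while of all genes 1.33% were called higher by edgeR and 4.68% by DESeq2, and 8.57% were higher at an unadjusted p under 0.05. The estimates nevertheless lay mostly on 1 side: 34 of the 35 log2 fold changes were below 0, as were 52.4% of those of all genes, and the median was -0.53 for the members and -0.03 for all genes. With a library left out, 29 to 34 members were below 0, the fewest without AAV2-GFP replicate 1. At an unadjusted p under 0.05, 17 members were lower, where 7.9% of all genes were. In 18 members both AAV2-Cre libraries were below all 3 AAV2-GFP libraries, which held for 15.6% of all genes, and in 1, Ift52, both were above (19.6% of all genes).

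By role, the genes of the ciliary gate and the axoneme had the most negative medians. Rpgrip1, which anchors the retinitis pigmentosa GTPase regulator in the connecting cilium, had 161 and 176 CPM in AAV2-Cre, against 483, 311 and 336 CPM in AAV2-GFP. The groups did not overlap, and the log2 fold change was -1.20 ± 0.20 (SE), a 2.29-fold lower level (edgeR adjusted p = 0.0283). Tbc1d32, which is needed for normal ciliary structure and Hedgehog signaling in mice, had 19.1 and 21.6 CPM in AAV2-Cre and 51.2, 36.6 and 37.7 CPM in AAV2-GFP, with a log2 fold change of -1.08 (edgeR adjusted p = 0.0524). Rp1 had 284 and 530 CPM in AAV2-Cre and 1411, 836 and 740 CPM in AAV2-GFP, with a log2 fold change of -1.32 ± 0.33 (SE, edgeR adjusted p = 0.0877). Its paralog Rp1l1 had 129 and 170.3 CPM in AAV2-Cre and 286, 247 and 203 CPM in AAV2-GFP, with -0.75 ± 0.19 (SE, edgeR adjusted p = 0.0992). In all 3 genes the groups were apart without reaching the threshold. The remaining axoneme gene, the kinase Mak, which limits the length of the photoreceptor cilium, had 94.4 and 132 CPM in AAV2-Cre and 246, 149 and 157 CPM in AAV2-GFP (log2 fold change -0.74).

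The other 7 gate genes had log2 fold changes between -0.23 (Rpgrip1l) and -0.79 (Lca5), with no call. Among them were Cep290, the bridge between microtubules and membrane in the transition zone, at -0.70, its partner Nphp4 at -0.76, and Iqcb1 at -0.53. The BBSome subunits ran from -0.30 (Bbs1) to -0.76 (Bbs7), with a median of -0.55 and 0 of 6 called. Bbs7 had 109 and 160.5 CPM in AAV2-Cre and 288, 202 and 180.1 CPM in AAV2-GFP. The chaperonin-like Bbs10 and Bbs12, which help to assemble the BBSome, had -0.24 and -0.80, and the small GTPases Arl3 and Arl13b, which release and recruit lipidated cargo inside the cilium, had -0.14 and -0.69. The transport trains were shifted least. The 10 IFT-B subunits had a median of -0.28 and ran from Ift88 at -0.73 and Ift81, the tubulin-binding subunit, at -0.70 to Ift52, a core subunit, at 0.43. The 3 IFT-A subunits had a median of -0.21. Ift52 was the only member above 0, with 53.7 and 46.7 CPM in AAV2-Cre and 37.9, 28.1 and 42.8 CPM in AAV2-GFP (edgeR adjusted p = 0.357).

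**Figure D2:**
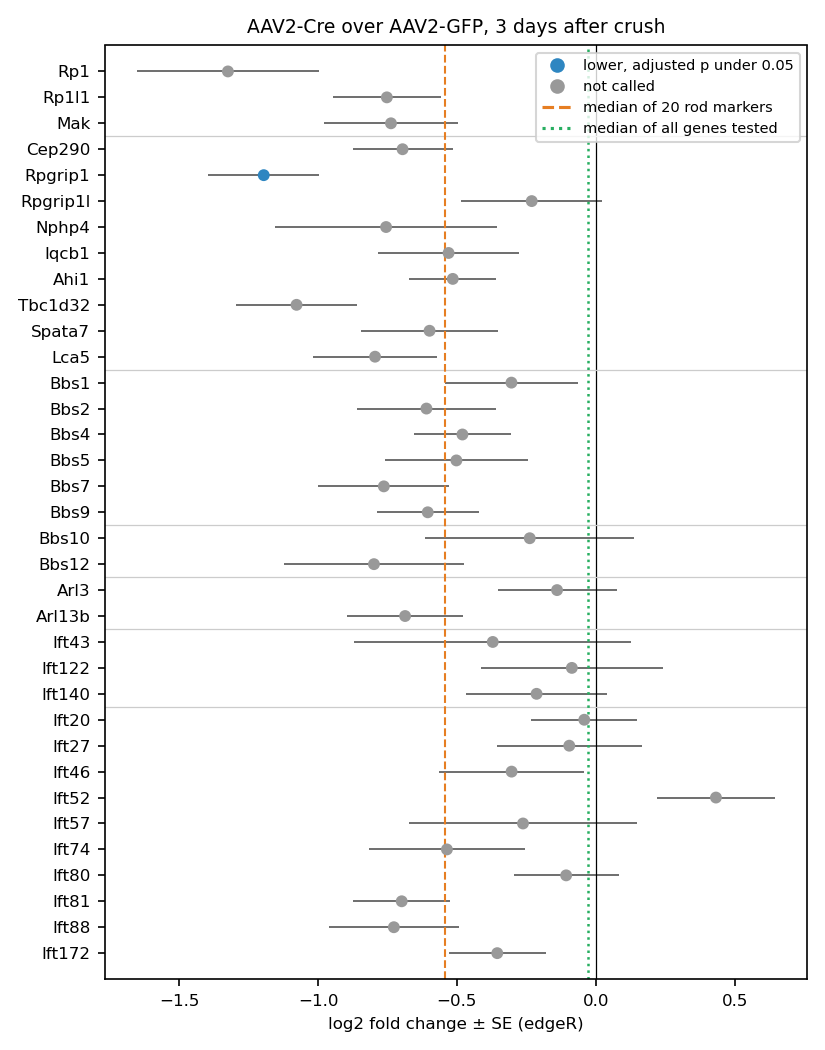
Points are edgeR log2 fold changes of AAV2-Cre over AAV2-GFP with their SE for the 35 genes, grouped by role, and the dashed and dotted lines are the medians of 20 rod markers (-0.54) and of all genes tested (-0.03). Rpgrip1 (-1.20) is the gene called, Rp1 lies at -1.32 (-0.91 to -1.83 with a library left out), and Ift52 (0.43) is the point to the right of 0.

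Markers of other cells moved alongside. The 20 rod markers had a median log2 fold change of -0.54, close to that of the members, with 20 of 20 below 0 and 0 called, and their summed share was 1.76% and 3.76% of counts in AAV2-Cre, against 4.63%, 3.86% and 4.10% in AAV2-GFP. The median was -0.25 for 12 cone markers, -0.54 for 12 bipolar cell markers, 0.28 for the 14 RGC markers that passed the filter, 1.01 for 14 T and NK cell markers and 1.03 for 10 B cell markers. Set against the rod markers of the same library, the 3 axoneme genes gave 2.86 and 2.15 counts per 100 rod marker counts in AAV2-Cre and 4.28, 3.44 and 2.82 in AAV2-GFP. Rpgrip1 gave 0.907 and 0.456 in AAV2-Cre and 1.07, 0.867 and 0.862 in AAV2-GFP. On this scale the groups overlapped for both. The part of the rod share in the lower levels was not tested.

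The count of members called after deletion depended on the tool and on 3 of the 5 libraries. DESeq2 called 11 members lower (3.12% of 16609 genes were), Rpgrip1, Rp1, Rp1l1, Tbc1d32, Cep290, Lca5, Ahi1, Bbs7, Bbs9, Ift81 and Arl13b, and limma-voom called 3, Rpgrip1, Rp1 and Tbc1d32. The share of all genes that limma-voom called lower is not given here, so its count has nothing to be set against. Rpgrip1 lost its call without AAV2-Cre replicate 1 (edgeR adjusted p = 0.289), AAV2-Cre replicate 2 (0.159) or AAV2-GFP replicate 2 (0.0550), at log2 fold changes of -1.10, -1.25 and -1.28. Leaving out an AAV2-Cre library also moved Rp1, whose log2 fold change was -0.91 without replicate 1 and -1.83 without replicate 2, and Bbs7, with -0.48 and -1.06. In addition, 8.7% of the exon bases of Rpgrip1 overlap Supt16 on the other strand. Whether the counting used strand is not given in the sources used here.

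The comparison of P14 with P1 asks how the cilium genes change as retinal cells mature, with 20890 genes tested by edgeR over the 8 development libraries. Of the 35 members, 19 rose and 5 fell, and 11 were not called. In all genes 33.6% were called higher and 33.6% lower. With a log2 fold change beyond 1 also required, 5 rose and 2 fell (19.7% and 15.2% of all genes). The median log2 fold change was 0.32, against -0.01 for all genes. The axoneme genes Rp1l1 and Rp1 moved most, followed by Ift43, and Lca5 and Ift88 were among those that moved the other way.

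The 3 axoneme genes rose together. Rp1l1 had 32.7, 26.97 and 26.9 CPM at P14, against 6.30, 6.29 and 3.91 CPM at P1, and rose by 2.36 ± 0.17 on the log2 scale (SE, edgeR adjusted p = 1.11e-06). Rp1 had 24.9, 24.2 and 22.9 CPM at P14, against 4.03, 5.21 and 5.90 CPM at P1, a log2 fold change of 2.22 ± 0.13 (SE, edgeR adjusted p = 2.57e-07). Mak had 24.3, 22.5 and 18.6 CPM at P14, against 8.42, 8.66 and 7.83 CPM at P1, with 1.36 ± 0.12 (SE, edgeR adjusted p = 3.95e-06). In these genes every P14 library was above every P1 library, which held for 38% of all genes. Both chaperonin-like genes also rose, Bbs10 by 1.22 and Bbs12 by 0.42, as did both GTPases, Arl3 by 0.42 and Arl13b by 0.37. Of the BBSome subunits, Bbs1 (0.39), Bbs2 (0.36) and Bbs9 (0.19) rose, whereas Bbs4, Bbs5 and Bbs7 were not called, at 0.11, -0.20 and 0.03.

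The transport trains split. Ift43, a small peripheral IFT-A subunit, had 29.9, 28.9 and 31.2 CPM at P14, against 11.1, 11.7 and 9.30 CPM at P1, with a log2 fold change of 1.46 ± 0.10 (SE, edgeR adjusted p = 5.4e-07). Its partners Ift122 and Ift140 were not called, at 0.11 and 0.03. Ift20 had 95.4, 98.3 and 100.4 CPM at P14, against 56.9, 54.8 and 56.0 CPM at P1, with 0.78 ± 0.05 (SE, edgeR adjusted p = 8.65e-07). Ift80, Ift57, Ift74 and Ift52 rose as well, by 0.85, 0.49, 0.33 and 0.32. In contrast Ift88, the subunit whose loss abolishes cilia in mice, had 21.1, 25.2 and 20.5 CPM at P14, against 43.4, 41.3 and 46.9 CPM at P1, and fell by 1.01 ± 0.09 on the log2 scale (SE, edgeR adjusted p = 4.1e-06). No P14 library of Ift88 reached the P1 range, and 36% of all genes likewise had every P14 library below every P1 library. Ift81 had 40.6, 39.6 and 36.97 CPM at P14, against 60.9, 53.8 and 55.3 CPM at P1, and fell by 0.57 ± 0.07 on the log2 scale (SE, edgeR adjusted p = 3.53e-05), although Ift74, its partner in the tubulin-binding pair, rose. The members with the highest CPM that were not called were both IFT-B subunits. Ift172 had 96.3, 90.8 and 96.2 CPM at P14, against 92.4, 86.3 and 85.1 CPM at P1 (log2 fold change 0.07 ± 0.06, SE). Ift46 had 78.3, 75.4 and 73.4 CPM at P14, against 71.6, 73.5 and 71.6 CPM at P1 (0.04 ± 0.05, SE).

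Of the 9 gate genes, 3 were higher, 3 lower and 3 not called, shares of 33.3% in each direction that are close to the 33.6% of all genes. Lca5, which encodes the connecting cilium protein lebercilin, had 22.7, 21.7 and 22.4 CPM at P14, against 52.2, 51.6 and 52.8 CPM at P1, and its log2 fold change of -1.26 ± 0.06 (SE) had the smallest adjusted p among the members (edgeR adjusted p = 3.97e-08). Spata7, a partner of Rpgrip1 in the photoreceptor connecting cilium, fell by 0.59 ± 0.08 (SE, edgeR adjusted p = 6.9e-05), with 16.3, 16.6 and 15.2 CPM at P14, against 24.2, 23.6 and 23.0 CPM at P1. Rpgrip1l fell by 0.57 ± 0.10 (SE, edgeR adjusted p = 0.00048), with 19.3, 18.8 and 17.3 CPM at P14, against 26.2, 30.1 and 24.4 CPM at P1. Its paralog Rpgrip1 rose by 0.69. Cep290 rose by 0.83 ± 0.08 (SE, edgeR adjusted p = 5.9e-06), with 63.0, 67.4 and 57.5 CPM at P14, against 34.9, 34.2 and 34.7 CPM at P1, and Ahi1, the Joubert syndrome protein of the transition zone, rose by 0.35. Nphp4, Iqcb1 and Tbc1d32 were not called, at 0.03, -0.16 and 0.13. Over the same step 19 of the 20 rod markers rose (median 2.87), 14 of 14 Müller glia markers rose (median 2.29) and 14 of 16 RGC markers fell (median -3.23), and the part of cell composition in the changes of the members was not tested.

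**Figure D3:**
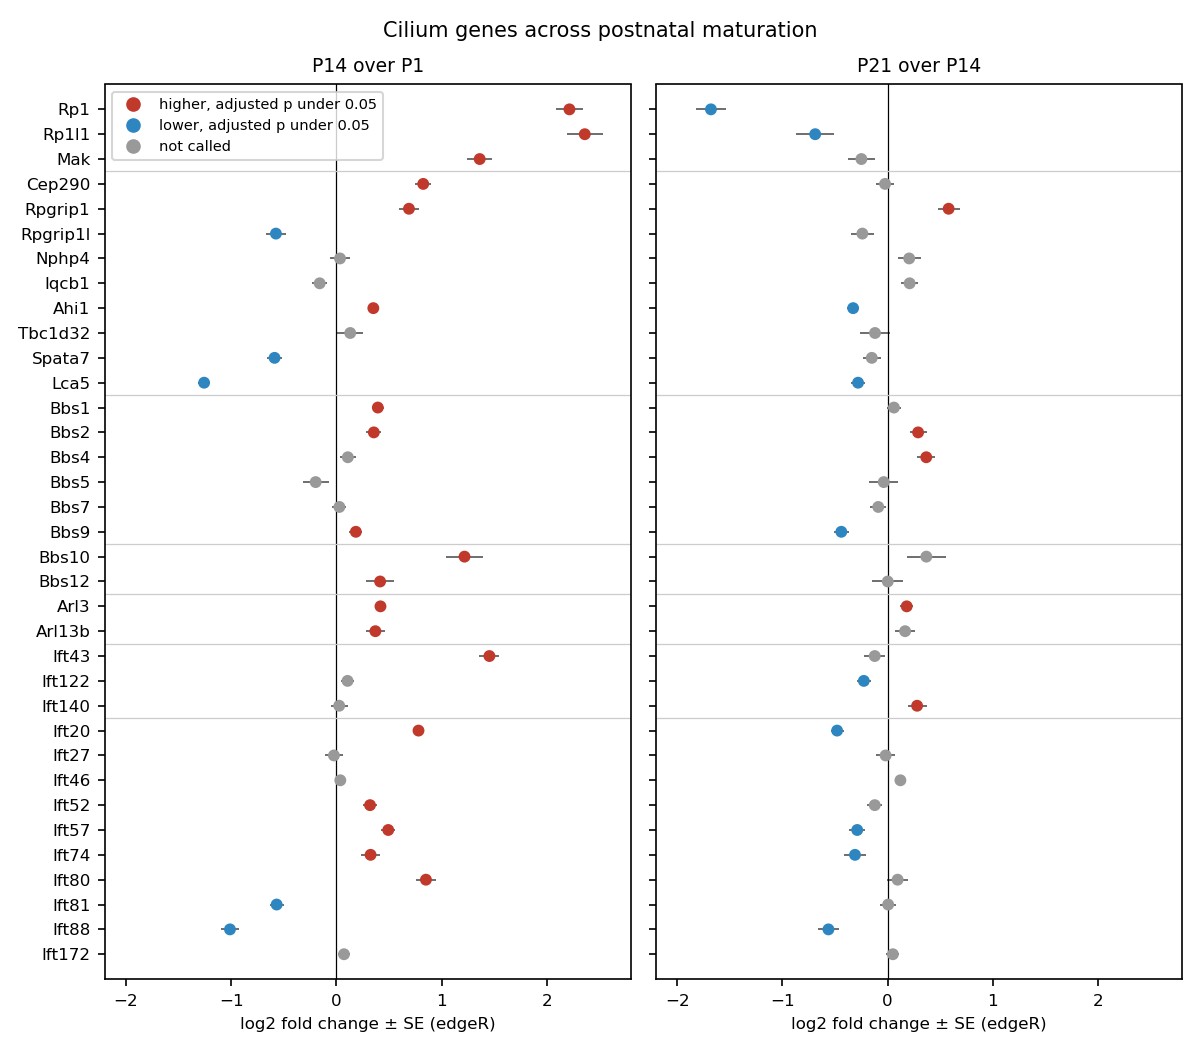
Points are edgeR log2 fold changes with their SE for the 35 genes, P14 over P1 on the left and P21 over P14 on the right, coloured by call. Rp1 and Rp1l1 lie at 2.22 and 2.36 on the left and at -1.68 and -0.69 on the right, while Lca5 and Ift88 are below 0 on both sides.

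Between P14 and P21 the changes were smaller and more often downward. Of the 35 members, 5 rose, 10 fell and 20 were not called, where 14.6% of all genes were called higher and 19.3% lower, and the median log2 fold change was -0.04. No member rose and 1 fell with a log2 fold change beyond 1 in addition (2.7% and 9.21% of all genes). It was Rp1, with 7.11 and 7.28 CPM at P21, against 24.9, 24.2 and 22.9 CPM at P14 (log2 fold change -1.68 ± 0.15, SE, edgeR adjusted p = 4.16e-05). Rp1l1 fell by 0.69 in the same step, with 17.7 and 16.8 CPM at P21, against 32.7, 26.97 and 26.9 CPM at P14. Mak, at -0.25, was not called. Outside the axoneme, Ift20 fell by 0.48 ± 0.06 (SE, edgeR adjusted p = 0.000366), with 64.7 and 70.5 CPM at P21, against 95.4, 98.3 and 100.4 CPM at P14. Ahi1 fell by 0.33 ± 0.05 (SE, edgeR adjusted p = 0.0015), with 151 and 144 CPM at P21, against 187, 202 and 190.2 CPM at P14. Both had risen in the step before. Ift88 and Lca5, which had fallen then, fell again. Ift88 had 14.6 and 14.3 CPM at P21, against 21.1, 25.2 and 20.5 CPM at P14, and fell by 0.56 ± 0.10 (SE, edgeR adjusted p = 0.00272). Lca5 had 17.9 and 17.4 CPM at P21, against 22.7, 21.7 and 22.4 CPM at P14, and fell by 0.28 ± 0.06 (SE, edgeR adjusted p = 0.00802). Ift57, Ift74 and Ift122 fell by 0.29, 0.31 and 0.23. Rod markers fell too over this step, 13 of 20 of them, with a median of -0.89, and 10 of 16 RGC markers fell, with a median of -1.31. Of the Müller glia markers 5 of 14 rose, and they took 4.20% of counts at P21, against 2.34% at P14, while 9 of 9 pericyte markers fell, with 0.0804% of counts at P21, against 0.469% at P14. The part of these shifts in the members' values was not tested.

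Rpgrip1 was the member that rose most in this step, by 0.58 ± 0.10 on the log2 scale (SE, edgeR adjusted p = 0.00243), with 105 and 115 CPM at P21, against 73.7, 81.2 and 74.7 CPM at P14. The BBSome changed in both directions. Bbs4 rose by 0.37 ± 0.09 (SE, edgeR adjusted p = 0.00969), with 75.6 and 82.5 CPM at P21, against 60.4, 64.2 and 66.6 CPM at P14. Bbs2 rose by 0.29 ± 0.08 (SE, edgeR adjusted p = 0.0201), with 66.5 and 69.2 CPM at P21, against 59.95, 58.6 and 54.5 CPM at P14. Bbs9 fell by 0.44 ± 0.07 (SE, edgeR adjusted p = 0.00121), with 21.9 and 20.5 CPM at P21, against 29.4, 30.7 and 29.5 CPM at P14. None of these 3 overlapped between the ages. Of all genes, 24.4% had every P21 library above every P14 library, and 34.7% had every one below. Ift140 had 76.9 and 88.4 CPM at P21, against 69.4, 73.0 and 69.97 CPM at P14 (log2 fold change 0.28 ± 0.09, SE, edgeR adjusted p = 0.0369). Arl3 had 75.3 and 79.9 CPM at P21, against 74.2, 67.5 and 71.7 CPM at P14 (0.18 ± 0.06, SE, edgeR adjusted p = 0.0477). Both stood close to the threshold. Ift172 and Ift46 again were not called, at 0.05 and 0.12. The number of higher calls rested on P21 replicate 2, without which 1 member was called higher.

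Over both steps, 7 members rose and then fell: Rp1, Rp1l1, Ift20, Ift57, Ift74, Bbs9 and Ahi1. Another 3, Rpgrip1, Bbs2 and Arl3, rose in each step, 2, Ift88 and Lca5, fell in each, and 9 rose between P1 and P14 without a later call. In 8 members no step was called, namely Ift27, Ift46, Ift172, Bbs5, Bbs7, Nphp4, Iqcb1 and Tbc1d32. Of all genes, 33.6% were called higher in the first step and 19.3% lower in the second. The share of all genes with each pattern over both steps was not computed. These pattern counts are therefore a description and not a trait of the members. The direct comparison of P21 with P1, which shares its libraries with the other comparisons, called 19 members higher and 6 lower (34.1% and 33.6% of all genes). The largest net differences were those of Rp1l1 (1.67), Bbs10 (1.59), Ift88 (-1.57), Lca5 (-1.54), Ift43 (1.33) and Rpgrip1 (1.27). Rp1 ended 0.54 above P1. Ahi1 ended near its starting level, with 151 and 144 CPM at P21, against 144, 147 and 153 CPM at P1 (log2 fold change 0.02).

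**Figure D4:**
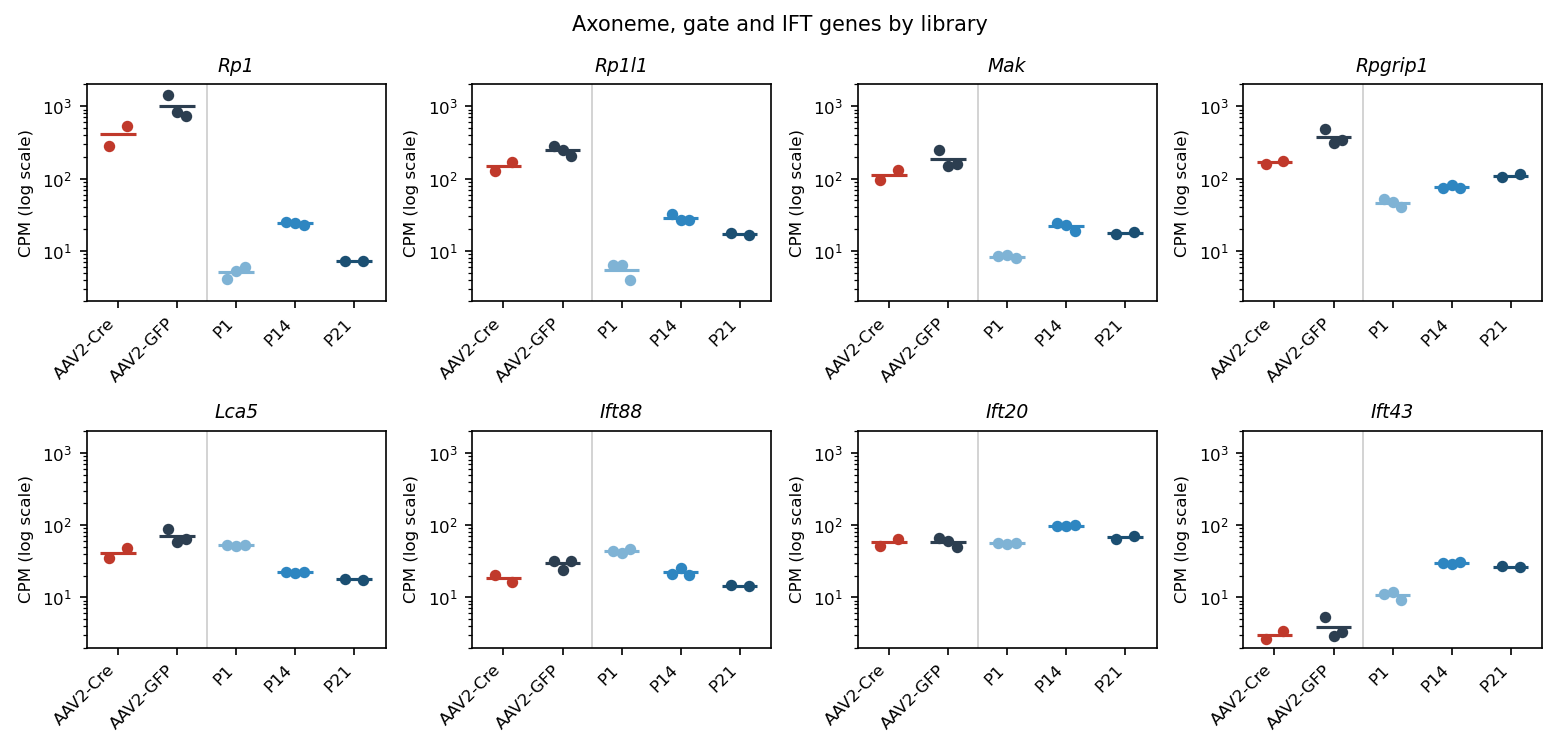
CPM on a log scale for 8 members in each library (points) with group means (bars), AAV2-Cre and AAV2-GFP left of the line and P1, P14 and P21 right of it. Rp1 stands at 284 to 1411 CPM in the adult libraries and at 4.03 to 24.9 CPM in development, Rpgrip1 increases at each age, Lca5 and Ift88 decrease at each age, and Ift43 is lowest in the adult libraries.

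The injured adult libraries were then set beside the development libraries. The datasets differ in age, genotype, virus and injury, and were sequenced to different depths, so a difference between them is given as a description only, and its sources cannot be told apart. All 5 AAV2-Cre and AAV2-GFP libraries were above all 8 development libraries in 10 members, Rp1, Rp1l1, Mak, Bbs5, Bbs7, Rpgrip1, Bbs9, Ift80, Arl13b and Bbs4, and below them in 8, Ift43, Bbs1, Ift46, Ift122, Ahi1, Ift57, Nphp4 and Ift172. The ranges overlapped in the other 17. Over 23844 genes, 22.5% were above and 24.5% below. Rp1 had the widest gap, with 284 to 1411 CPM in the knockout dataset and 4.03 to 24.9 CPM in development, and its mean was 138 times higher in AAV2-GFP than at P21. Rp1l1 and Mak were 14.2 and 10.4 times higher in AAV2-GFP than at P21. Ift43 stood at the other end, with 2.62 to 5.32 CPM in the knockout dataset and 9.30 to 31.2 CPM in development. Its mean in AAV2-GFP was 0.145 times that at P21.

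The BBSome subunits, which form a single complex, lay on both sides of this comparison. Bbs5, Bbs7 and Bbs9, whose means in AAV2-GFP were 8.78, 7.59 and 5.18 times those at P21, were above every development library, and Bbs4, at 1.81 times, was too. Bbs2 overlapped, and Bbs1 was below every development library, with 15.5 to 23.4 CPM in the knockout dataset and 49.0 to 71.4 CPM in development. Per kb of exon, Bbs5 stood at 39.7 and Bbs1 at 2.72 in AAV2-GFP, against 4.53 and 8.94 at P21, so the order of the subunits differed. Of the IFT-B subunits, Ift80 was above, with 58.8 to 84.9 CPM in the knockout dataset and 18.9 to 40.7 CPM in development, while Ift46, Ift57 and Ift172 were below. Exon length was also set against the ratio of the mean in the knockout dataset to that in development. The Spearman correlation was 0.177 across the 35 members and -0.082 across 22582 genes. Median exon length was 6908 bases in the members above, 6516.5 in those below and 4628 in those that overlapped. These values are a description, since genes of a library share its depth and composition, and the part of exon length in the gaps was not tested. Rod markers took 1.76% to 4.63% of counts in the AAV2-Cre and AAV2-GFP libraries and 0.113% to 0.191% in the development libraries, and their part in these gaps was not tested.

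**Figure D5:**
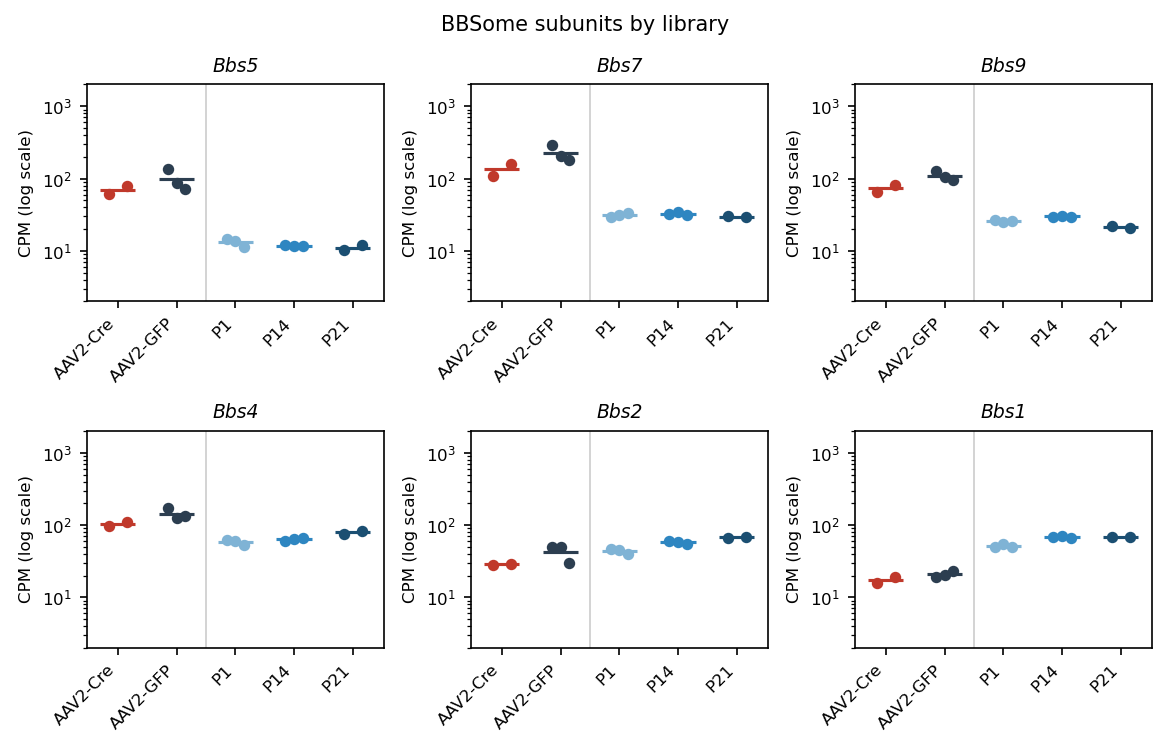
CPM on a log scale for the 6 BBSome subunits in each library (points) with group means (bars), AAV2-Cre and AAV2-GFP left of the line and P1, P14 and P21 right of it. Bbs5, Bbs7, Bbs9 and Bbs4 are higher in every adult library than in every development library, and Bbs1 (15.5 to 23.4 CPM against 49.0 to 71.4 CPM) is lower.

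Cilium genes outside the 35 were read from 10 further lists. Among their genes called lower by edgeR after Kdm6a deletion were Cspp1, a transition zone and axoneme protein (log2 fold change -0.87, edgeR adjusted p = 0.0442), and Pcdh15, which belongs to a list of the connecting cilium and photoreceptor disk with 2 of 13 tested genes called lower (log2 fold change -0.86, edgeR adjusted p = 0.0319). Pcdh15 is a cadherin of the photoreceptor calyceal processes. The 5 tested RFX factors had a median of -0.64 with 0 called, and the 11 other IFT subunits, which complete the trains, a median of -0.14 with 0 called. At P14 against P1, where 33.6% of all genes were called in each direction, 7 of 11 IFT motor genes fell and 2 rose, with Kifap3 at -1.75 and Kif3a at -1.44, subunits of the kinesin-2 that drives IFT-B but also carries cargo in axons. Of 19 other transition zone genes, 12 rose and 5 fell, among them Cc2d2a (1.22), which rose. Of 11 tested tubulin modifiers and related genes, 8 fell and 0 rose, among them the α-tubulin acetyltransferase Atat1 (-1.99), and of 10 Hedgehog genes of the cilium 8 rose, with Kif7 at 2.36 and Smo at 1.89, and 2 fell.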

How the data were processed

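RNA-seq was made from Thy1.2-sorted retinal cells in 13 libraries. The authors deposited raw counts per gene, made by trimming with Trimmomatic 0.39, aligning to GRCm38 with HISAT2 2.2.1 and counting with featureCounts of Subread 2.0.3. These counts were analysed here in R 4.3.3 with edgeR 4.0.16. The knockout and development datasets were fitted apart, after filterByExpr and scaling by the trimmed mean of M values, with group as the only term, and genes were called at an adjusted p under 0.05 without a fold limit. CPM were computed without a prior count. DESeq2 1.42.0 and limma-voom (limma 3.58.1) were alternatives. The procedure was tested on simulated data with planted changes larger than most of those seen in the members, so smaller changes were not tried. The members and all lists were chosen with earlier results of these data known. Per comparison, values by library were given for up to 6 called members of smallest p in each direction and for the 2 members with the highest CPM that were not called. Of other cilium lists, up to 2 called genes of smallest p were named. Exon lengths came from GENCODE M21 and promoters from RefSeq. Some genes of these other lists are not reported here by name.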

Additional observations from a re-analysis of the deposited data

How the results depend on the processing

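Counts of members called lower after deletion were 10 without a low-count filter, 2 with at least 10 counts in every library, 2 without scaling, 11 with DESeq2, 3 with limma-voom, 13 with all 13 libraries in 1 fit, and 0 to 1 with each library left out. The share of all genes called lower moved with the method too, from 0.294% in the main edgeR fit to 3.12% with DESeq2. It is not given for the other settings. The counts in this section therefore show how calls depend on the processing and are not a result about the members. With a log2 fold change beyond 1 required, 5 rose and 2 fell at P14 against P1, 0 rose and 1 fell at P21 against P14, and 5 rose and 2 fell at P21 against P1 (20% and 18.2% of all genes for the last). At P21 against P14, 3 members were called higher without scaling, 0 with all 13 libraries in 1 fit, and 1 to 6 with a library left out, the lowest without P21 replicate 2. Lower calls there were 6 with all 13 libraries and 7 to 10 with a library left out. At P21 against P1, higher calls were 12 with all 13 libraries and 15 to 19 with a library left out, and lower calls 6 to 7. At P14 against P1, 17 to 19 rose and 5 to 7 fell with a library left out. Of the members apart between datasets, 10 to 14 were above and 8 to 9 below with a library left out. Replicate numbers are shared between groups, but same-numbered libraries did not deviate together (correlations of -0.096 to 0.043). With the number as a replicate block, 0 rose and 1 fell after deletion, 19 rose and 5 fell at P14 against P1, 3 rose and 7 fell at P21 against P14, and 15 rose and 6 fell at P21 against P1. Uncalled values changed sign for Ift172 at P21 against P14, to -0.00992 without scaling, -0.00636 with all 13 libraries and -0.00993 without P21 replicate 2, and it was at most 0.0920 with a library left out. Ahi1 at P21 against P1 did so too, to -0.00166 with all 13 libraries and -0.0321 without P21 replicate 1, and was at most 0.0377 with a library left out. Leaving out scaling moved the median of all genes to 0.11 at P14 against P1. Smaller depth, wider spread between replicates and the 2 AAV2-Cre libraries limit the knockout comparison.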
